A study of Mus musculus with 20 samples.

Results

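The genes described here encode the protein machinery that docks, primes and fuses synaptic vesicles, together with relatives of the same families that act elsewhere in membrane traffic. They were taken by symbol, from the families named synaptotagmin, complexin, syntaxin, VAMP, SNAP, synapsin, SV2, RIM, UNC13 and syntaxin-binding protein. This choice was made with earlier results of these data known. In the developmental series 67 of the 37994 genes carried such a symbol. They comprised 17 synaptotagmins, 15 syntaxins, 7 VAMPs, 6 syntaxin-binding proteins, 5 SNAP genes, 4 complexins, 4 RIM genes, 3 synapsins, 3 UNC13 genes and 3 SV2 genes. The symbol rule also takes Snap91, which encodes the clathrin assembly protein AP180 and not a SNARE. Single cells of the habenula, a pair of small epithalamic nuclei, were profiled in mice with the plate-based Cel-seq2 method, in which each captured mRNA carries a unique molecular identifier (UMI).

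The developmental series came from the Brn3a-tauLacZ mouse line, named for a LacZ reporter at Brn3a (the older name of Pou4f1, a transcription factor of habenular neurons), and held 15 plates of 384 wells. Embryonic days 11, 13, 15 and 18 (E11 to E18), postnatal days 4 and 7 (P4 and P7) and the adult had 2 plates each, and E12 had 1. Another 5 plates, all of E18 C57BL/6 embryos, held left habenula (2 plates), right habenula (2 plates) or both sides (1 plate). All stages of the series carry the same line name, so no comparison between genotypes was possible, and the genotype at the reporter locus, the sex, the adults' age in weeks and the number of animals pooled on a plate are not given by the labels. Nothing in the labels says that plates of 1 stage came from separate animals, so the p-values measure the spread between plates, which may be technical.

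A synaptic vesicle fuses when VAMP in its membrane zippers with a syntaxin and SNAP-25 in the plasma membrane into a SNARE complex. Munc18 proteins (the Stxbp genes) hold and template the syntaxin, UNC13 and RIM proteins dock and prime the vesicle at the active zone, complexin binds the assembled SNAREs, and a synaptotagmin senses calcium and sets off fusion. Synapsins tether vesicles in the reserve pool and SV2 proteins are vesicle glycoproteins. Most SNARE relatives outside these neuronal genes serve fusion in the endosomal, Golgi and lysosomal routes that every cell uses. Medial habenular neurons project to the interpeduncular nucleus and release glutamate and acetylcholine, and vesicle release is thus their output. The cells examined here were not limited to these neurons, and release was not measured.

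The DNA just upstream of 4 members is shown because Cplx1, Syt9 and Vamp1 were among the strongest risers described below, while Syt1, the best known calcium sensor of fast release, did not pass the test over the same interval. The sequences are RefSeq's for build GRCm38.p6, read in the direction of transcription, and stop before both the RefSeq and the GENCODE start of the gene. Capitals mark GC boxes (GGGCGG on either strand, the core bound by Sp-family factors).

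Cplx1, chr5:108550028-108550277 (- strand): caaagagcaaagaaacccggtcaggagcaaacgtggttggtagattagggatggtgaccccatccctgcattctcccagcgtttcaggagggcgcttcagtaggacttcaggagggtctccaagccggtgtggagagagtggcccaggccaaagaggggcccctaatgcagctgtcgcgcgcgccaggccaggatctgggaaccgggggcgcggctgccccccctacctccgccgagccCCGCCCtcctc

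Syt9, chr7:107370540-107370727 (+ strand): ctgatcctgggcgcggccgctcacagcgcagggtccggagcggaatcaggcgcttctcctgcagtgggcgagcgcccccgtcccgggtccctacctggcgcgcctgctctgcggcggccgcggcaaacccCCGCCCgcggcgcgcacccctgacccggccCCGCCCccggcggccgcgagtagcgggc

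Vamp1, chr6:125215331-125215550 (+ strand): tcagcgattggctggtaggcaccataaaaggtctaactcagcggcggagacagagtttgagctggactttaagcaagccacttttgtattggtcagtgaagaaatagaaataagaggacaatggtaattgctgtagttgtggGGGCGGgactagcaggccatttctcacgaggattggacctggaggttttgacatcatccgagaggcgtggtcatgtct

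Syt1, chr10:109010983-109011225 (- strand): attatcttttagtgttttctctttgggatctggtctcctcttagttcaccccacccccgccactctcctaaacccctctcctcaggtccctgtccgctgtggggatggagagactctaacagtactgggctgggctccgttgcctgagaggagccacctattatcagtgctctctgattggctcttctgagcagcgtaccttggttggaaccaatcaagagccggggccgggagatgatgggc

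The printed Cplx1 stretch held 1 GC box, that of Syt9 held 2, that of Vamp1 held 1, and that of Syt1 none. Their G and C contents were 64.8%, 79.8%, 48.6% and 55.1%. Syt1 had 2 RefSeq entries, and its printed stretch left out 7 bases. In the 250-base windows counted next, Syt1 was among the members with a GC box. The printed stretches therefore do not set Syt1 apart from the risers. RefSeq entries were found for 51 of the 67 members, and over the 250 bases before each start 36 of these 51 (70.6%) held a GC box, against 35.4% of 27025 genes. The motif did not separate members by their course: it was present in 14 of 19 risers from E11 to P7 (73.7%) and in 19 of the 25 other tested members (76.0%). A TATA box (TATAAA, either strand) was found in 3 of 51 members (5.9%) and in 14.3% of all genes. The cAMP response element TGACGTCA was found in 2 members, Stxbp3 and Syn1 (3.9%, against 1.8% of all genes). The letters TTCAGCACC, the left part of the element bound by the neuronal repressor REST, stood in Syn1 only (2.0% of members, against 0.3%). These matches are descriptions of letters in a window and no evidence of binding.

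Release genes were followed in Pou4f1-positive cells, defined by at least 1 Pou4f1 UMI, because the share of such cells among those kept ranged from 28.1% to 92.2% over the series plates. Counts were summed per plate, and the plate was the replicate. Between 21 (adult plate 1) and 304 (E11 plate 2) cells entered per series plate, with 556190 to 7421718 counts, so adult plate 1 is the least precise. Levels are given as CPM, the count of a gene for every 1000000 counts of these sums. The neuronal marker list (Tubb3, Stmn2 and 8 others) was detected in full in these cells on every plate (3792 to 21241 CPM), and the medial habenula list (Tac2, Chat and 6 others) went from 877 and 953 CPM at E11 to 6550 and 7570 CPM at P4. It differed between plates of 1 stage, at 1015 and 3485 CPM at E15. Several plates stood apart in markers of other cells. On E18 plate 1 the progenitor list summed to 1740 CPM and the ependymal and choroid plexus list to 1449 CPM, against 168 and 17.8 CPM on E18 plate 2. On E13 plate 2 the vascular list summed to 2187 CPM and the ependymal and choroid plexus list to 2555 CPM, against 160 and 7.51 CPM on E13 plate 1, and on adult plate 1 the myelin list summed to 4395 CPM, against 294 CPM on adult plate 2. Their part in the results below was not tested, other than by leaving plates out and by a stricter gate (no Sox2 UMI, myelin list under 1%). With that gate the highest E18 sums were 920 CPM for the progenitor list and 134 CPM for the ependymal and choroid plexus list. The highest E13 vascular sum was then 1272 CPM, and the highest adult myelin sum 1707 CPM.

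Between E11 and P7 many release genes rose in Pou4f1-positive cells, by very different amounts. Of the 58 members with enough counts to be tested, 28 rose and 1 fell (edgeR quasi-likelihood test, Benjamini-Hochberg adjusted p at most 0.05 over 16353 genes). That is 50.0% of the members tested, while 35.0% of all genes tested were called, 18.8% higher and 16.2% lower. The median log2 fold change was 0.89 over the members and 0.008 over all genes. With DESeq2, 27 members were called, and in the main fit 32 had an unadjusted p under 0.05. For DESeq2 and the other alternatives, here and below, the share of all genes called is not given. Their counts cannot be set against the shares of the main fit. In all 14 alternative analyses 16 of the 29 calls held, and no direction turned in those run. Leaving out 1 plate left 17 to 19 members called, and a fit to the plates of these stages alone called 45. Over the same interval, in the same cells, the neuron list (which shares Gap43 with the lateral habenula list) went from 21241 and 21090 to 7268 and 7531 CPM, the lateral habenula list from 3074 and 3111 to 323 and 359 CPM, and genes of the dissociation response from 289 and 375 to 809 and 1126 CPM. The part of these shifts in the members' changes was not tested.

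**Figure D1:**
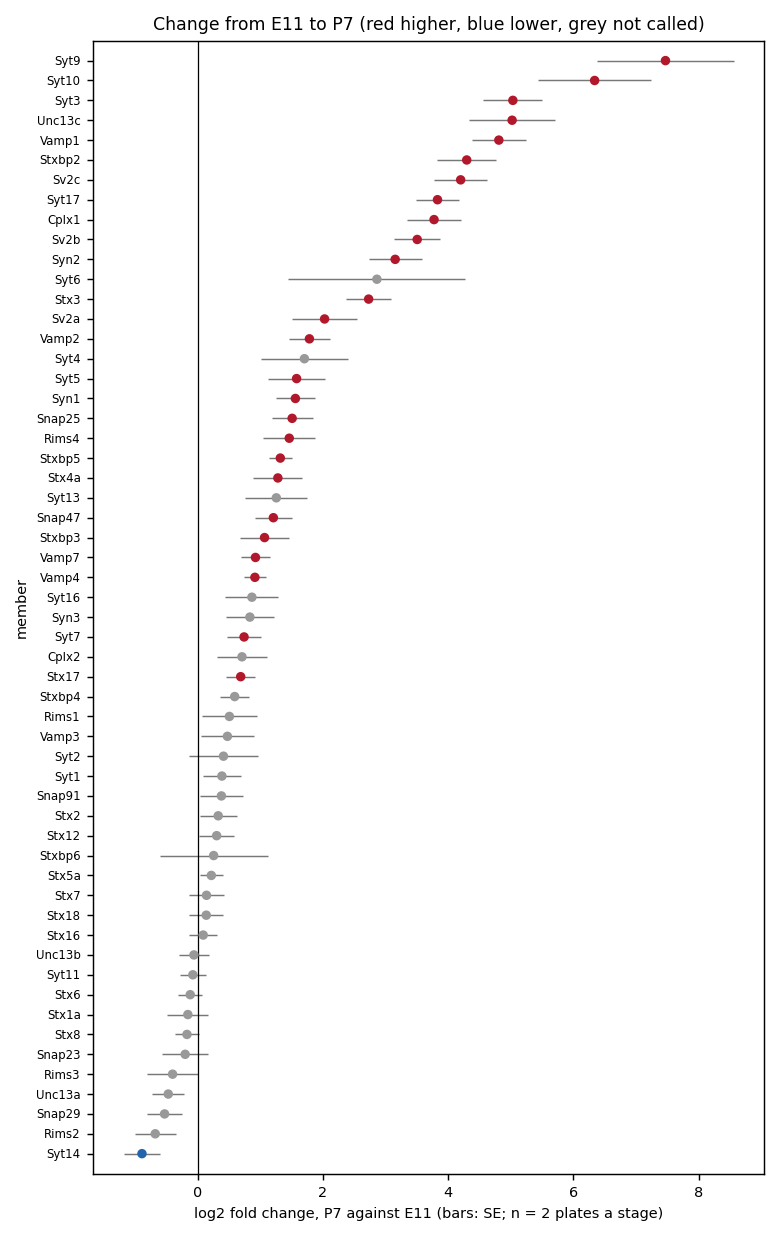
Log2 fold change from E11 to P7 in Pou4f1-positive cells for 56 of the 58 tested members, with bars for the standard error (2 plates a stage) and colour for the call. Red points (26 members) run up to 7.47 for Syt9, a single blue point marks Syt14, and grey members, among them Syt1 and Stx1a, were not called.

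Among the synaptotagmins, changes from E11 to P7 differed in size between isoforms. Syt9 (chr7:107370728-107548656, plus strand), a fast calcium sensor related to Syt1, stood at 6.06 and 6.30 CPM on the E11 plates and at 1065 and 1046 CPM on the P7 plates. The groups were far apart, and the log2 fold change was 7.47 ± 1.09 (SE; adjusted p = 0.000295), or 171-fold between the plate means. Syt10, known as a sensor for growth factor secretion in olfactory bulb neurons, was at 0 and 0.869 CPM at E11 and at 31.1 and 39.9 CPM at P7 (log2 6.34 ± 0.90, adjusted p = 0.000241). Its E11 value rests on 4 counts in all, so the size of that fold is imprecise. Syt3 went from 3.23 and 3.04 to 104 and 94.6 CPM (log2 5.03 ± 0.47). Syt17, a relative without calcium-dependent lipid binding, went from 10.3 and 15.6 to 176 and 178 CPM (log2 3.83 ± 0.35). For both genes the E11 plates and the P7 plates did not overlap. Syt5 also rose (log2 1.58 ± 0.46, adjusted p = 0.019), as did Syt7, the slow high-affinity sensor of asynchronous release, by a small margin (0.74 ± 0.27, adjusted p = 0.0466). These last 2 calls were lost when either E11 plate or either P7 plate was left out, and that of Syt7 also with the replicate number as a block.

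Syt1 (chr10:108497650-109010982, minus strand) was already present early. It stood at 794 and 828 CPM at E11, 1461 at E12, 559 and 303 at E13, 564 and 667 at E15, 631 and 850 at E18. The P4 plates had 908 and 992 CPM of it, those of P7 1014 and 1013, and the adult plates 1724 and 1386. From E11 to P7 its log2 fold change was 0.39 ± 0.30 (adjusted p = 0.342). Syt11, a calcium-independent family member, lay between 510 and 793 CPM on all 15 plates (log2 -0.08 ± 0.21). Syt14 was the only member that fell, from 49.5 and 38.9 to 26.0 and 19.3 CPM (log2 -0.89 ± 0.29, adjusted p = 0.0309). It lost that call in 6 of the 14 alternatives.

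Syt4 and Syt6 were not called from E11 to P7, although the plates of these stages did not overlap. Syt6 was at 146 and 139 CPM at E11, at 0.624 CPM on one E15 plate and 94.1 on the other, at 30.6 and 968 CPM at E18, at 535 on both P4 plates, and at 761 and 1226 on those of P7. The E18 plates thus lay far apart (E11 to P7 log2 2.86 ± 1.41, adjusted p = 0.136). Syt4 was at 108 and 139 CPM at E11, 7.35 and 86.7 at E18, and 332 and 440 at P7 (log2 1.70 ± 0.69, adjusted p = 0.0749). In both genes the lower of the E18 plates was plate 1, the plate with the high progenitor and ependymal sums given above and a medial habenula list at 542 CPM, against 3654 CPM on plate 2. On the lower E15 plate for Syt6 that list was also the lower. On the C57BL/6 plates at E18 both genes were even, Syt6 at 213 to 268 CPM and Syt4 at 90.5 to 149 CPM.

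**Figure D2:**
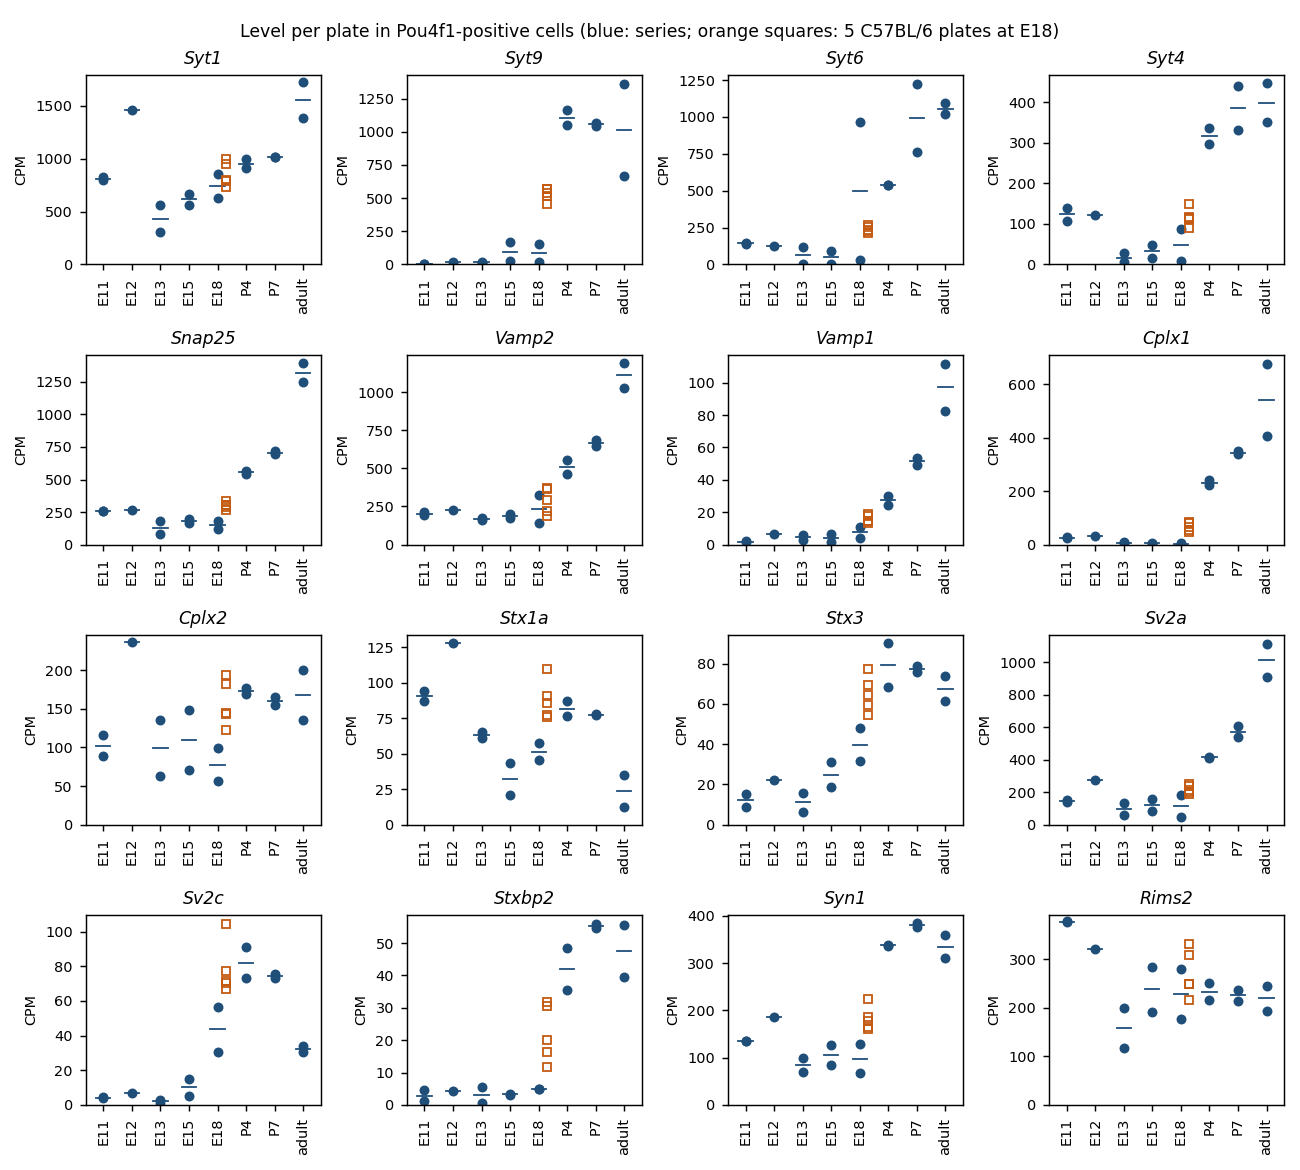
Level in CPM in Pou4f1-positive cells for 16 members, 1 blue point per series plate with a line at the stage mean and 1 open orange square per C57BL/6 plate at E18; each panel has its own axis from 0. Among the series plates Syt9 and Cplx1 step up at P4, but their orange squares at E18 lie between the embryonic and P4 series points. Syt9 was already at 171 CPM on E15 plate 2 and 156 CPM on E18 plate 2. Syt1 and Cplx2 are present from E11 on, and the E18 series plates of Syt6 lie far apart.

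Snap25 and Vamp2, SNAREs of the neuronal fusion complex, rose moderately, and Vamp1 by more. Snap25, the plasma membrane SNARE, was at 260 and 258 CPM at E11, 541 and 568 on the P4 plates, 716 and 695 on those of P7, and 1394 and 1246 in adults. Its E11 to P7 log2 fold change was 1.51 ± 0.33 (adjusted p = 0.00403; 0.0527 without E11 plate 1). Vamp2, the main vesicle SNARE of the forebrain, went from 213 and 192 to 646 and 689 CPM (log2 1.78 ± 0.33, adjusted p = 0.00142). Vamp1 (chr6:125215551-125245964, plus strand), the isoform best known from spinal cord, brainstem and the neuromuscular junction, went from 2.22 and 1.52 to 53.8 and 49.0 CPM (log2 4.81 ± 0.44, adjusted p = 1.01e-05). In the adult Vamp1 stood at 112 and 82.4 CPM. Vamp1 overlaps Tapbpl and Cd27 on the other strand, so part of its counts is uncertain.

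Of the syntaxins of the plasma membrane, Stx3 and Stx4a rose and Stx1a was not called. Stx1a, a neuronal syntaxin, was at 86.9 and 94.1 CPM at E11 and 77.9 and 77.3 CPM at P7 (log2 -0.16 ± 0.33, adjusted p = 0.739). Stx3, a syntaxin of ribbon synapses and postsynaptic membrane insertion, rose from 15.4 and 8.90 to 78.9 and 75.8 CPM (log2 2.73 ± 0.36, adjusted p = 0.000137). Stx4a, a syntaxin of many cell types whose counts are uncertain because another gene overlaps it, rose as well (log2 1.28 ± 0.39), a call lost when any 1 of the 4 plates was left out.

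Complexin 1 stepped up after birth in the Brn3a-tauLacZ series. Cplx1 (chr5:108518554-108550024, minus strand) was at 24.2 and 28.0 CPM at E11, 31.8 at E12, 6.15 and 8.25 at E13, 1.87 and 6.92 at E15, and 0 and 4.86 at E18. The P4 plates stood at 222 and 240 CPM, those of P7 at 348 and 337, and the adult ones at 405 and 676. Within this series the embryonic and postnatal plates did not overlap, while the C57BL/6 plates at E18 stood between them, at 48.6 to 82.8 CPM. The 0 on E18 plate 1 allows up to 3.67 CPM. From E11 to P7 the log2 fold change was 3.77 ± 0.43 (adjusted p = 4.87e-05). Cplx2 was present from E11 on at a varying level. It was at 89.0 and 116 CPM at E11, 237 at E12, 56.4 and 98.8 at E18, and 155 and 165 CPM at P7. From E11 to P7 it was not called (log2 0.71 ± 0.40, adjusted p = 0.191). From E18 to P4 it was called higher (log2 1.29, adjusted p = 0.0493), a call lost in 8 of the 14 alternatives. Cplx3 and Cplx4, the complexins of retinal ribbon synapses, were too low to be tested.

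All 3 SV2 genes and 2 of the 3 synapsin genes rose, where 18.8% of all genes were called higher and 16.2% lower. Sv2a, the widespread isoform, went from 139 and 155 CPM at E11 to 537 and 608 CPM at P7 (log2 2.03 ± 0.52, adjusted p = 0.0102), a call lost without E11 plate 1, E11 plate 2 or P7 plate 2, and in all kept cells (adjusted p = 0.0542). Sv2b went from 17.8 and 19.8 to 195 and 214 CPM (log2 3.51 ± 0.37). Sv2c, the most restricted isoform in brain, went from 3.84 and 4.56 to 73.3 and 75.5 CPM (log2 4.20 ± 0.42). The 3 genes differed in the adult, where Sv2a was at 1114 and 906 CPM and Sv2c at 30.6 and 34.1 CPM. Syn1 rose from 136 and 135 to 386 and 376 CPM (log2 1.56 ± 0.32), and Syn2 from 6.26 and 6.30 to 52.4 and 55.2 CPM (log2 3.15 ± 0.42). Syn3 was at 65.3 and 50.4 CPM at E11 and 104 and 93.0 CPM at P7 (log2 0.83 ± 0.38, adjusted p = 0.111). All 3 synapsin genes hold a Timp gene on the opposite strand within their span (Timp1, Timp4 and Timp3), which the counting may or may not have kept apart.

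Of the 7 RIM and UNC13 genes, which act in docking and priming, Unc13c and Rims4 rose from E11 to P7 and the others were not called, where 18.8% of all genes were called higher and 16.2% lower. Rims1 was at 348 and 334 CPM at E11 and 464 and 463 CPM at P7 (log2 0.51 ± 0.44, adjusted p = 0.404), and Rims2 was at 378 and 377 and then 236 and 215 CPM (log2 -0.68 ± 0.33, adjusted p = 0.125). Unc13a and Unc13b, the priming factors Munc13-1 and Munc13-2, were not called either (log2 -0.47 ± 0.26 and -0.06 ± 0.24). Rims3 was not called (log2 -0.40 ± 0.41, adjusted p = 0.477). With 2 plates a stage, a missing call does not show that a level stayed the same. Unc13c (Munc13-3), best known from cerebellar granule cells, rose from 5.25 and 1.96 to 108 and 120 CPM (log2 5.02 ± 0.69, adjusted p = 0.00019). Rims4 rose from 10.9 on both plates to 28.4 and 29.1 CPM (log2 1.46 ± 0.41, adjusted p = 0.016), a call that leaving out any 1 plate removed.

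Of the syntaxin-binding proteins, Stxbp2 (Munc18-2), known from granule release in blood and epithelial cells, rose from 4.45 and 1.30 to 54.6 and 55.9 CPM (log2 4.30 ± 0.47, adjusted p = 3.73e-05). Stxbp5 (tomosyn), which competes for the SNARE complex and restrains release, rose too (50.7 and 46.0 to 121 and 110 CPM, log2 1.32 ± 0.18). Stxbp6 (amisyn), which also binds SNAREs, was not called (8.49 and 4.34 CPM at E11, 6.34 and 8.47 CPM at P7). Stxbp3 was called only narrowly (log2 1.07 ± 0.38, adjusted p = 0.0475) and lost the call in 10 of the 14 alternatives.

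Of a list of 11 general trafficking members, 10 were tested from E11 to P7 and 4 rose (Vamp7, Snap47, Stxbp2 and Stxbp3). Of a list of 30 neuronal release genes, 29 were tested, of which 16 rose and none fell. Over all genes 35.0% were called, 18.8% higher and 16.2% lower. Snap23, the SNAP-25 relative of non-neuronal cells, was at 11.9 and 8.04 CPM at E11 and 8.49 and 8.10 at P7, and Stx7, Stx8, Stx12, Stx16, Stx18, Stx5a and Stx6, which serve endosomes, the Golgi and the endoplasmic reticulum, had log2 fold changes between -0.17 (Stx8) and 0.30 (Stx12), none called. Vamp3, the endosomal VAMP, was not called (0.47 ± 0.42). Members that rose by small folds were Vamp4 (log2 0.91 ± 0.18, adjusted p = 0.002), Vamp7 (0.92 ± 0.23), Snap47 (1.21 ± 0.30) and Stx17 (0.69 ± 0.23), which acts in autophagosome fusion. Of these only Vamp4 passed in all 14 alternatives, and Vamp7 and Snap47 lost their calls without E11 plate 1, E11 plate 2 or P7 plate 1. Stx17 lost its call in 7 of the 14, among them DESeq2, spliced counts, no filter on low counts and each left-out plate. The Vamp7 row lies on an unplaced scaffold and was not in the annotation used for coordinates.

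**Figure D3:**
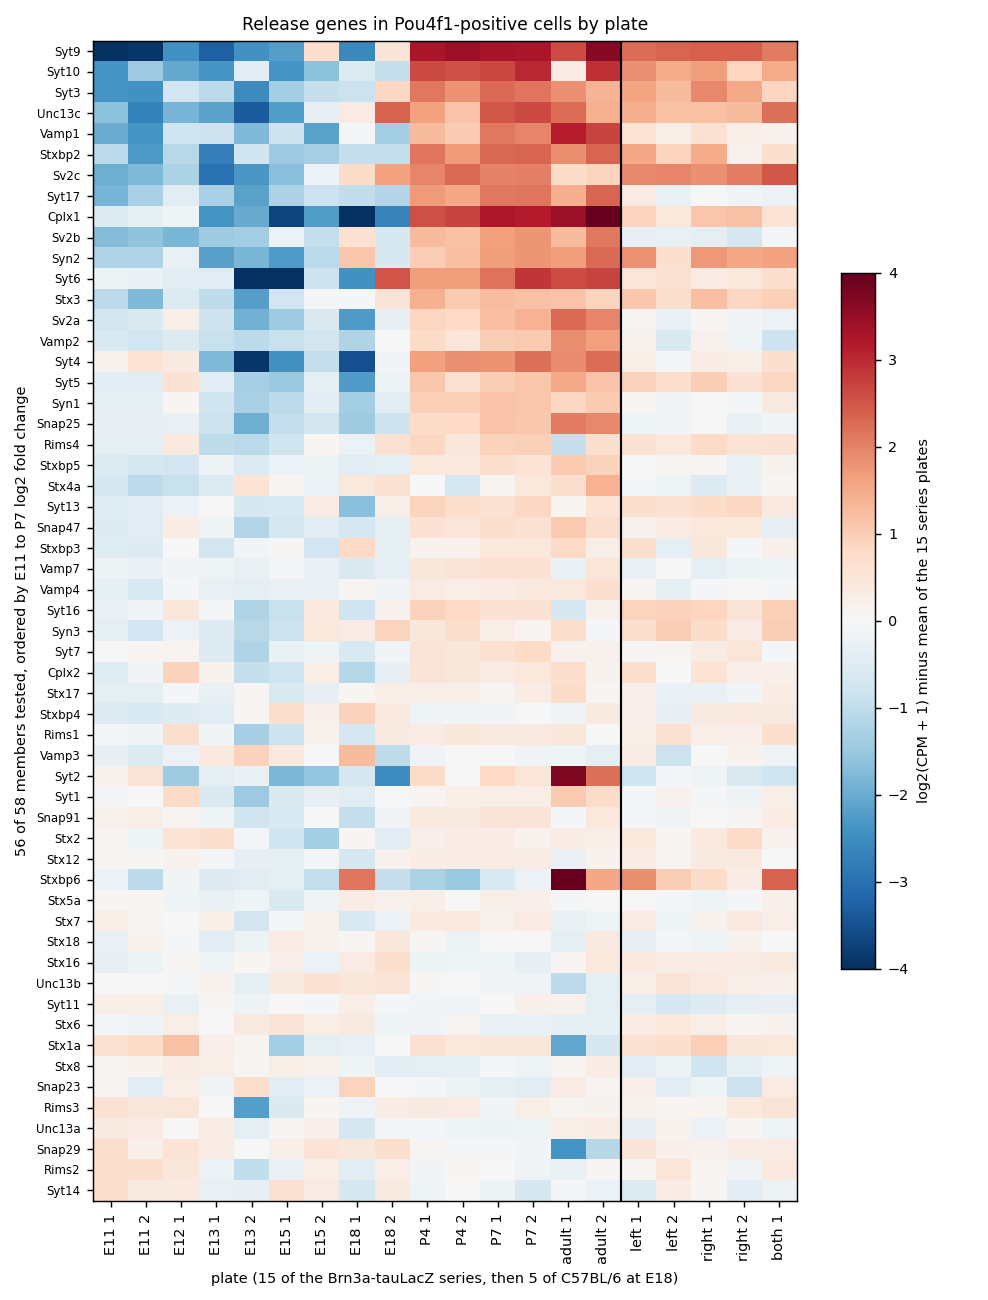
Level of 56 of the 58 tested members in Pou4f1-positive cells on each of the 20 plates, as log2(CPM + 1) minus the gene's mean over the 15 series plates, ordered by the E11 to P7 change. Most upper rows turn from blue to red between the E18 and P4 columns, and the C57BL/6 columns at E18 lie between them for Syt9 (456 to 571 CPM) and Cplx1 (48.6 to 82.8 CPM).

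The step with the most calls among the members was that from E18 to P4. There 23 of 58 members rose and none fell (39.7%, against 20.4% of all genes called, 9.97% higher and 10.4% lower), with a median log2 fold change of 0.88 against 0.013 over all genes. Cplx1 had the largest rise (log2 6.46 ± 0.62, adjusted p = 0.000183). Its E18 level rests on 6 counts and its fold ranged from log2 5.67 to 12.77 over the alternatives, so the size is imprecise. It was followed by Syt10 (4.07 ± 0.96, from 4 counts at E18), Syt9 (3.76 ± 0.91), Stxbp2 (3.25 ± 0.55) and Syt17 (2.93 ± 0.38). Of the list of 11 general trafficking members, 10 were tested over this step, of which 4 rose and none fell. Of the list of 30 neuronal release genes, 29 were tested over this step, of which 15 rose and none fell. Among those that rose were Snap25 (log2 2.02 ± 0.34), Syn1 (1.92 ± 0.33) and Vamp2 (1.27 ± 0.33). Among those not called were Stx1a (0.81 ± 0.36, adjusted p = 0.129), Rims1 (0.60 ± 0.45), Syt1 (0.52 ± 0.30, adjusted p = 0.246), Unc13a (0.36 ± 0.28) and Unc13b (-0.30 ± 0.25). Cplx1, Snap25, Stxbp2, Syn1 and Syt17 passed in all 14 alternatives. The count fell to 11 without E18 plate 1, and to 10 without P4 plate 1, without P4 plate 2 or with the plates of these stages alone, and it was 27 without E18 plate 2. DESeq2 called 25 members, and the share of all genes it called is not given. Among the calls lost with the stricter gate were those of Stxbp5 (adjusted p = 0.128), Vamp7 (0.0912) and Stx3 (0.112). The Vamp2 call was lost with the plates of these stages alone and without E18 plate 1 or either P4 plate, that of Syt9 with the plates of these stages alone and without E18 plate 1 or P4 plate 2, and that of Syt10 without E18 plate 2, with spliced counts and with all kept cells, where its log2 fold change was 1.95 (adjusted p = 0.122; range over its alternatives 1.95 to 6.61). The medial habenula list stood at 542 and 3654 CPM on the E18 plates and at 6550 and 7570 CPM on the P4 plates, while the lateral habenula list lay between 947 and 1196 CPM at E18 and between 197 and 254 CPM at P4. The share of these shifts in the members' rise was not tested.

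Each shorter embryonic step showed few or no calls. From E11 to E13 none of the 58 members passed in edgeR (1.78% of all genes did, 1.05% higher and 0.734% lower), with 11 members at an unadjusted p under 0.05 and 5 called by DESeq2, all lower. The share of all genes called by DESeq2 is not given. In the main fit the median log2 fold change of the members was -0.39. Snap25 was at 179 and 83.4 CPM at E13 against 260 and 258 at E11, Syt4 at 27.3 and 5.50 against 108 and 139, and Rims2 at 199 and 117 against 378 and 377. Other release genes lay the other way, among them Syt9, at 10.2 and 19.3 CPM against 6.06 and 6.30. The neuron marker list stood at 14031 and 9301 CPM on the E13 plates, against 21241 and 21090 CPM at E11, and E13 plate 2, the lower plate for Snap25, Syt4 and Rims2, carries the high vascular and ependymal sums given above. From E13 to E15 none of 58 passed (0.110% of all genes, 0.0673% higher and 0.0428% lower; 11 at an unadjusted p under 0.05, 1 by DESeq2), and from E15 to E18 none of 58 (0.159% of all genes, 0.104% higher and 0.0550% lower; 8 and 3). The nearest in the latter step were Sv2c (4.99 and 15.1 to 30.6 and 56.7 CPM, log2 1.95 ± 0.43, adjusted p = 0.102) and Unc13c (log2 2.62 ± 0.68, adjusted p = 0.179).

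From P4 to P7 none of 58 members passed in edgeR (0.00612% of all genes, which is 1 gene), with 2 at an unadjusted p under 0.05, Vamp1 and Unc13c, and 0 by DESeq2. The count was 8 in a fit to the plates of these stages alone and 1 without a filter on low counts. From P7 to adult 2 members rose and 2 fell (6.90%, against 3.68% of all genes, 1.35% higher and 2.34% lower). Stx1a fell from 77.9 and 77.3 CPM to 12.6 and 34.8 CPM (log2 -1.57 ± 0.37, adjusted p = 0.0389), and Snap29, a SNARE of autophagy and endosomes, from 21.7 and 21.0 to 3.60 and 9.95 CPM (log2 -1.42 ± 0.35, adjusted p = 0.0457). Syt2, the fast sensor of brainstem and inhibitory terminals, rose from 8.76 and 6.99 to 73.9 and 25.1 CPM (log2 2.40 ± 0.55, adjusted p = 0.0363). Stxbp6 (amisyn) rose from 6.34 and 8.47 to 252 and 31.4 CPM (log2 3.99 ± 0.87, adjusted p = 0.0265). Its high value came from adult plate 1, where the myelin list stood at 4395 CPM. In the myelin-rich cells of the adult plates Stxbp6 was at 255 and 220 CPM, and the myelin list between 61803 and 69152 CPM. The part of myelin transcripts in its rise was not tested. With the stricter gate the log2 fold change of Stxbp6 was 2.19 (adjusted p = 0.037). Leaving out cells above 3 times their plate's median removed the calls of Stxbp6, Syt2 and Snap29. On adult plate 1 that left 12 of the 21 Pou4f1-positive cells and 87807 of their 556190 counts. None of the 4 calls held in every alternative: the count was 0 without adult plate 1, without P7 plate 1 or without P7 plate 2, and 4 without adult plate 2. Immediate early and heat shock genes, a sign of the response to dissociation, summed to 809 and 1126 CPM at P7 and 1799 and 2082 CPM in the adult. The neuron list lay between 7268 and 7531 CPM at P7 and between 3792 and 4111 CPM in the adult, and the astrocyte list between 43.4 and 59.8 CPM and then between 269.5 and 406.8 CPM. The median mitochondrial share of counts per cell was 10.8% on adult plate 1, against 4.92% on adult plate 2 and 5.11% and 4.69% on the P7 plates. The part of these shifts in the members' differences was not tested.

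The share of cells with a UMI of a gene also moves with its level, so the shares are given here as a description only. With every cell thinned to 2000 UMIs, a Syt9 UMI was found in 1.8% and 2.0% of Pou4f1-positive cells on the E11 plates and in 81.7% and 85.2% on the P4 plates. The unthinned shares were 8.8% and 7.6%, and 99.2% and 98.6%. Cplx1 was found in 5.3% and 6.3% of thinned cells at E11 and 34.4% and 35.7% at P4 (unthinned 28.6% and 29.5%, and 88.2% and 87.3%). For Syt1 the thinned shares were 66.1% and 69.2% at E11 and 79.0% and 86.3% at P4 (unthinned 94.3% and 95.0%, and 98.1% and 98.3%). Median counts per cell were 16290 and 14361 at E11 and 21228 and 21845 at P4. For comparison, 23 cells of adult plate 2 with at least 5% of their counts from the myelin list, at a median of 6819 counts, were taken. There the thinned shares were 21.7% for Syt9, 4.3% for Cplx1 and 8.7% for Syt1 (unthinned 56.5%, 30.4% and 34.8%). These cells come from an adult plate where both Syt9 and Cplx1 were high in Pou4f1-positive cells, so their shares do not measure the background on the E11 plates.

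On the C57BL/6 plates at E18 no difference between left and right habenula was detected in these genes. None of the 58 members tested passed in edgeR (0.00% of 14614 genes), with 1 at an unadjusted p under 0.05 (Stxbp6) and 0 by DESeq2. The median log2 difference, right against left, was -0.008. Syt9 was at 515 and 540 CPM on the left plates and at 566 and 571 on the right. Snap25 was at 289 and 304 CPM on the left and at 331 and 268 CPM on the right, and Cplx1 at 67.4 and 48.6 and at 78.9 and 82.8 CPM. Erythroid genes summed to 2327 and 19802 CPM in the Pou4f1-positive cells of the left plates and to 3902 and 278 CPM in those of the right, and their part was not tested. With 2 plates a side, small differences would not be detected. These levels also stood apart from those of the Brn3a-tauLacZ plates at the same labelled stage, where Syt9 was at 17.2 and 156 CPM and Cplx1 at 0 and 4.86 CPM. The medial habenula list summed to 4895 to 5371 CPM on the C57BL/6 plates. The sets differ in mouse line and were processed as separate tables, so mouse line and preparation cannot be told apart, and the difference was not tested.

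Within the embryonic plates, Pou4f1-positive cells were compared with Sox2-positive cells, which had at least 1 Sox2 UMI and none of Pou4f1. The progenitor list summed to 1287 to 5415 CPM in the Sox2-positive cells of the 6 plates used and to 329 to 1740 CPM in their Pou4f1-positive cells. Other lists differed too. On the E12 plate the neuron list was at 5267 against 17791 CPM, and the ependymal and choroid plexus list at 1620 against 7.7 CPM. The latter list reached 7234 CPM in Sox2-positive cells at E13, against 2555 CPM at most. At E15 the microglia list reached 3474 against 13.5 CPM at most. Their part was not tested. Over 6 plates from E12 to E18, with the plate as a block, 13 of 49 members were higher in Pou4f1-positive cells and 1 was lower (28.6%, against 7.40% of 10316 genes, 4.22% higher and 3.18% lower). The median log2 difference was 0.55, against 0.031 over all genes. Syt1 was higher by log2 1.69 ± 0.35 (adjusted p = 0.011), and it alone passed in all 14 alternatives. It stood at 1461 against 314 CPM on the E12 plate and 631 against 74.7 CPM on E18 plate 1. On the E13 plates it was at 559 and 303 CPM against 184 and 74.5 CPM, and on E15 plate 2 at 667 against 425 CPM. E15 plate 1 lay the other way, at 564 against 636.5 CPM. There Snap91 (129 against 191 CPM) and Syt6 (0.624 against 7.65 CPM, 1 count each) were also lower in Pou4f1-positive cells, while Rims1, Rims3 and Snap25 were higher. Rims1, the organiser of the active zone, was higher by log2 1.53 ± 0.24 (adjusted p = 0.00287), Rims3 by 1.66 ± 0.42, Syt6 by 1.55 ± 0.39, Snap91 by 1.31 ± 0.35 and Snap25 by 1.15 ± 0.25. Stxbp6 was lower (log2 -2.02 ± 0.48, adjusted p = 0.0204). Cplx1 had the largest rise from E18 to P4 within the series. It was at 0 to 31.8 CPM in the Pou4f1-positive cells of these plates and at 0 to 44.8 CPM in the Sox2-positive cells. The count ranged from 4 to 17 as single plates were left out.

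In the adult, 12 and 23 cells per plate gave at least 5% of their counts to the myelin list, and 1 of them on each plate also held a Pou4f1 UMI. Their sums came from 102058 and 150097 counts, and no test was made. The members differed in how their levels in these cells compared with those in Pou4f1-positive cells. Sv2a stood at 805 and 900 CPM in the myelin-rich cells and at 1114 and 906 CPM in Pou4f1-positive cells. Syt11 stood at 2571 and 2826 CPM, above the 731 and 510 CPM of Pou4f1-positive cells, and Stxbp3 at 196 and 240 CPM against 19.8 and 12.9 CPM. The neuronal sensors were far lower, with Syt9 at 127 and 120 CPM against 665 and 1363 CPM and Syt1 at 108 and 80.0 CPM against 1724 and 1386 CPM. Unc13a had 0 counts on both plates in the myelin-rich cells and stood at 88.2 and 93.1 CPM in Pou4f1-positive cells.

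**Figure D4:**
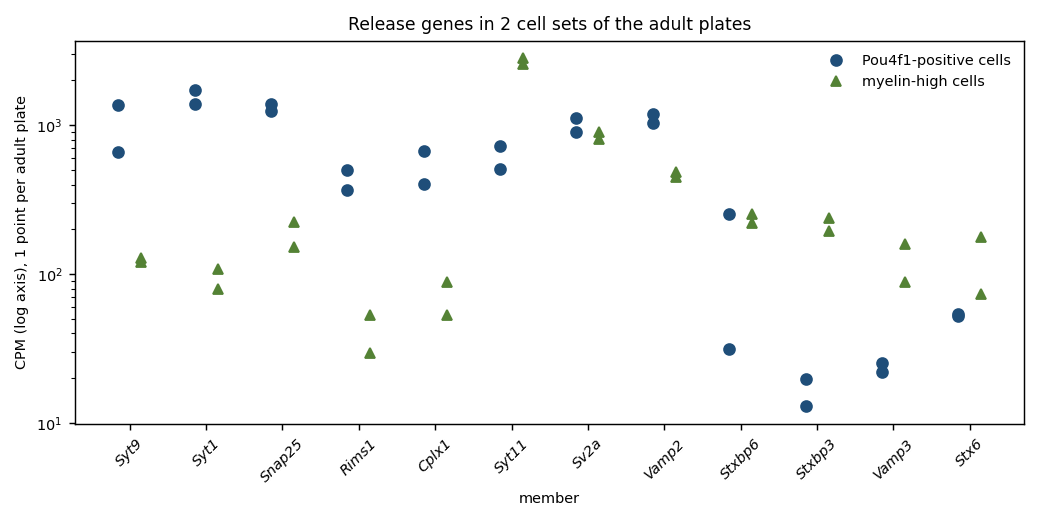
Level in CPM on a log axis for 12 members in Pou4f1-positive cells (circles) and myelin-rich cells (triangles), 1 point per adult plate. Syt9, Syt1 and Snap25 are higher in Pou4f1-positive cells, Sv2a is at 805 and 900 CPM in myelin-rich cells and 1114 and 906 CPM in Pou4f1-positive cells, and Syt11, Stxbp3 and Vamp3 are higher in myelin-rich cells.

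Other genes of the release pathway were taken from a list of 36 active zone scaffolds, Rab3 proteins, vesicle membrane proteins, transmitter transporters and recycling factors. Between E11 and P7, 22 of the 35 tested rose and 2 fell (68.6%, against 35.0% of all genes called, 18.8% higher and 16.2% lower), with a median log2 fold change of 1.29 against 0.008 over all genes. The largest rise was that of Slc18a3, the vesicular acetylcholine transporter (log2 7.49 ± 0.60). It stood at 0.808 and 0.434 CPM at E11 and at 124 and 103 CPM at P7. Its fold starts from a very low level, so the size is imprecise. Next were Cadps2, a priming factor of dense-core vesicles (5.93 ± 0.82, adjusted p = 0.000188), and Synpr, a vesicle membrane protein (5.42 ± 0.46). Cadps, the paralog of Cadps2, fell from 843 and 770 CPM at E11 to 81.2 and 84.8 CPM at P7 (log2 -3.22 ± 0.42, adjusted p = 0.00014), while Cadps2 went from 12.9 and 12.2 to 748 and 718 CPM. Doc2b, a calcium sensor of spontaneous release, fell (log2 -4.25 ± 0.89). From E11 to E13, 2 of 35 rose and 2 fell (11.4%, against 1.78% of all genes called). From E18 to P4, 19 of 35 rose and 1 fell (57.1%, against 20.4% of all genes called, 9.97% higher and 10.4% lower).

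The 9 members too low to be tested in Pou4f1-positive cells were Cplx3, Cplx4, Stx11, Stx19, Syt8, Syt12, Syt15, Vamp5 and Vamp8. Syt8 had 0 counts on 14 of the 15 series plates and 0.315 CPM on E15 plate 2. Cplx3 was highest on E11 plate 2, at 6.30 CPM, and Vamp8, a SNARE of secretory granules in other tissues, was highest on E13 plate 2, at 7.33 CPM. Syt15 was at 14.7 CPM on adult plate 2 and at 0 on adult plate 1, where a count of 0 allows up to 5.39 CPM.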

How the data were processed

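The authors deposited, per the file headers and the labels, expected counts per gene and well (UMI counts corrected for collisions among 4096 possible UMIs, as the values show), unscaled; values became whole UMIs, to within 1e-06, on inverting that correction. Reads were trimmed with Trim Galore and aligned with STAR 2.5.3a to mm10, named in the submitters' processing notes; the sources used here do not give the counting program, annotation or strand setting.

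Wells were kept with at least 1000 counts outside mitochondrial and spike-in rows, at least 500 genes and at most 20% mitochondrial counts (3729 and 1082 cells); no doublet caller was run, and cells above 3 times their plate's median were left out as an alternative. No kept cell shared an identical profile with another; plates reuse the same 384 barcodes by design. Counts were summed per plate and cell set and rounded, since the planned test takes whole counts. edgeR 4.0.16 (R 4.3.3; TMM, filterByExpr, quasi-likelihood test) was fitted to 14 plates at once, with Benjamini-Hochberg adjustment over all genes and a threshold of 0.05; SE is the log2 fold change divided by the root of F. DESeq2 1.42.0 was an alternative. On simulated counts for 16353 genes in the E11 to P7 comparison, 86% of genes changed 4-fold and 95% of those changed 8-fold were recovered, with 8 false calls among 189. Levels are CPM of unrounded sums; a count of 0 allows up to 3 counts, counting error only. Coordinates are from GENCODE M21 (GRCm38; 66 of 67 members), and 36 members overlap another gene, so their counts are uncertain.

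Named genes were the neuronal release and general trafficking genes of a written list and, in each comparison, the 5 members with the largest called change in each direction; Stx5a, Stx6, Stx16, Stx17, Stx18, Vamp4, Rims4, Syt14 and others outside it were named after their values were seen. The members and lists were chosen with earlier results of these data known. Counts over the members include all of them, but 2 members are not reported here by name or drawn in the figures.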

Additional observations from a re-analysis of the deposited data

How the results depend on the processing

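Over 9 comparisons, 125 counts of called members under an alternative were made, of which 89 stayed within 1.5 times the count reported and 36 did not; of 977 values of single called members, 758 kept their call, 219 lost it and 0 reversed. DESeq2 called 5 members from E11 to E13, 1 from E13 to E15 and 3 from E15 to E18, where edgeR called 0. Without a filter on low counts these 3 steps gave 13, 6 and 6 calls, and P4 to P7 gave 1. Spliced counts gave 1 call from E11 to E13, and all kept cells or the stricter gate (no Sox2 UMI, myelin list under 1%) gave 1 each from E15 to E18. In fits to the plates of the compared stages alone, the calls were 1 for E11 to E13, 10 for E18 to P4, 8 for P4 to P7, 0 for P7 to adult and 45 for E11 to P7. Without high-UMI cells P7 to adult gave 1. Against Sox2-positive cells, RLE size factors and a gate of at least 2 Sox2 UMIs gave 9 each. The share of all genes called under each alternative is not given, and the cause of these shifts was not tested.

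Leaving out 1 plate at a time gave 0 to 5 calls for E11 to E13, 0 to 1 for E13 to E15, 0 to 1 for E15 to E18, 10 to 27 for E18 to P4, 0 to 4 for P7 to adult, 17 to 19 for E11 to P7 and 4 to 17 against Sox2-positive cells; a stage left with 1 plate was assumed to vary like the others. Plates with the same number deviated together little over the stages (21 pairs, median r 0.04, from -0.23 to 0.31, 2 over 0.1). The 1 pair of sides had r = 0.19, which leaves a shared deviation there open. The numbers were not taken as pairs in the main fits. With the replicate number as a block the calls were 27 for E11 to P7, 22 for E18 to P4, 4 for P7 to adult and 0 for the other steps and for the sides.

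With 2 plates a group the design detects large changes, and adult plate 1 (21 cells) limits the adult values.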

Other observations

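Complexin 3 was detected in cells that carried Sox2 and no Pou4f1 UMI on E18 plate 1, at 15.5 CPM, while Pou4f1-positive cells of that plate had 0 counts of it. Vamp3, the endosomal SNARE of many non-neuronal cells, stood at 228 and 131 CPM in the Sox2-positive cells of the P4 plates and at 25.8 and 28.2 CPM in the Pou4f1-positive cells of the same plates. Stx6, a Golgi syntaxin, stood at 176 and 73.3 CPM in the myelin-rich cells of the adult plates and at 52.2 and 53.8 CPM in the Pou4f1-positive cells. These values rest on few cells in the smaller sets and were not tested.

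Among partner genes, Rab3c was at 316 CPM on adult plate 1 and 67.4 CPM on adult plate 2, and Slc17a7, a vesicular glutamate transporter, was at 8.49 and 6.08 CPM at E11 and at 251 and 314 CPM at P7.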
